A study of Homo sapiens with 3 samples.

Results

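MicroRNA host genes are the genes whose primary transcripts carry microRNA hairpins in their introns or exons. They were taken here as all genes whose GENCODE 29 symbol starts with MIR and ends in HG, of any class. GENCODE 29 holds 62 such genes, and 59 of them were matched by gene ID among the 48162 genes of the files. The first count is that 19 of the 59 had a mean of at least 0.5 FPKM over the libraries. FPKM, the unit of the deposited files, is fragments scaled by transcript length and library size. A further 15 were above 0 in at least 1 library but under that mean, 25 were listed at 0 throughout, and 3 are not analysed here.

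The study sequenced RNA from MDA-MB-231 cells, an established human line from a triple-negative breast cancer with mesenchymal traits, in 3 libraries, 1 per group. The groups were control cells (Co), cells depleted of FoxO3 (sF_3) and cells co-depleted of Geminin and FoxO3 (sG_sF_3). The cells of each group were grown in DMEM with serum and infected with lentivirus. The sources used here name neither the depletion agent nor the control vector. Since each group is 1 library, differences could not be set against replicate spread, no p-value was computed, and every ratio compares 2 libraries rather than 2 conditions.

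As background, a host transcript made by RNA polymerase II is cut by Drosha to free the hairpin, which Dicer trims to the mature microRNA. The mature strand guides Argonaute to messenger RNAs that pair with its seed, bases 2 to 8 from its 5′ end, and lowers their output. A host RNA level follows transcription, cutting and decay of the long transcript, so it is not a measure of the mature microRNA, which was not measured here. FoxO3 is a transcription factor of the forkhead family, and Geminin blocks relicensing of replicated DNA.

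The 19 host genes carry 36 annotated microRNA genes on their own strand, each host at least 1. A microRNA gene was counted only where it lies wholly inside the host. RefSeq (GRCh38.p14) gave mature sequences for all 36, 61 distinct mature microRNAs with 50 distinct seeds. Of these seeds, 3 occur under more than 1 host. The first is that of the let-7 family, restrainers of RAS and HMGA2, which sits under 4 hosts. Its sequences are shown because the 4 hosts include MIR100HG, the host with the lowest ratio to control. Capitals mark the seed.
hsa-let-7a-5p (MIR100HG and MIRLET7BHG): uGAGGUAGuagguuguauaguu
hsa-let-7b-5p (MIRLET7BHG): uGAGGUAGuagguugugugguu
hsa-let-7c-5p (MIR99AHG): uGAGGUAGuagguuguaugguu
hsa-miR-4458 (MIR4458HG): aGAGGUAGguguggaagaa

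The other two seeds in common join MIR100HG and MIR99AHG, paralogous hosts that each carry a let-7, a miR-99 family and a miR-125b hairpin. They are shown because MIR100HG was the host with the lowest ratio.
hsa-miR-100-5p (MIR100HG): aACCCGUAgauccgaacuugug
hsa-miR-99a-5p (MIR99AHG): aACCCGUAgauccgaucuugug
hsa-miR-125b-5p (MIR100HG and MIR99AHG): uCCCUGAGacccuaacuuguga

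The next 7 mature strands belong to the remaining hosts whose ratio to control after FoxO3 depletion lay beyond counting error. The first pair shares a seed.
hsa-miR-221-3p (MIR222HG): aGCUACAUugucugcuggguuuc
hsa-miR-222-3p (MIR222HG): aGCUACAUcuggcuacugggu
hsa-miR-503-5p (MIR503HG): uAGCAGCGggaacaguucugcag
hsa-miR-22-3p (MIR22HG): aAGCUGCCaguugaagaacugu
hsa-miR-4435 (MIR4435-2HG): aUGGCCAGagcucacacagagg
hsa-miR-646 (MIR646HG): aAGCAGCUgccucugaggc
hsa-miR-600 (MIR600HG): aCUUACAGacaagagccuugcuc

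Read totals, inferred from the FPKM, were 14507410 (control), 10760613 (FoxO3-depleted) and 12267332 (co-depleted). Values below follow that order. FOXO3 stood at 12.2, 2.79 and 2.94 FPKM, and GMNN, which encodes Geminin, at 112.3, 112.2 and 37.0, so both were low where the labels say they were depleted. The 4 markers that should be high in this line summed to 1402, 1691 and 1617 FPKM, with VIM at 593.2, 607.4 and 574.3 and ZEB1 at 31.3, 11.5 and 11.2. The 5 that should be low summed to 52.3, 52.5 and 56.4 FPKM, nearly all from ERBB2 (38.0, 41.6 and 46.8) and EPCAM (13.7, 9.80 and 8.95). ESR1 stayed at or under 0.12 FPKM and CDH1 was at 0.42, 1.02 and 0.58. Of leukocyte markers CD14 was at 6.76, 8.09 and 8.59 FPKM and PTPRC at 0.19, 0 and 0.08, and CD3E was listed at 0 throughout. In any library fibroblast markers summed to at most 0.39 FPKM, endothelial markers to at most 0.26 and HEK293 markers to at most 0.04. Only 2 of 3 endothelial and 3 of 4 HEK293 markers were listed.

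The levels of the 19 hosts spanned over 2 orders of magnitude. In all, 6 hosts had a mean of at least 10 FPKM, 9 lay between 1 and 10 and 4 between 0.5 and 1. By GENCODE 29 class 13 were lincRNAs and 3 processed transcripts, with 1 each antisense, sense intronic and from a bidirectional promoter. Of the 59 hosts 32.2% passed the mean of 0.5 FPKM, against 11.4% of 12283 long noncoding genes in the files. The 19 together summed to 259.6, 264.2 and 270.8 FPKM. MIR4435-2HG alone made up 36.3%, 44.4% and 40.9% of those sums.

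**Figure D1:**
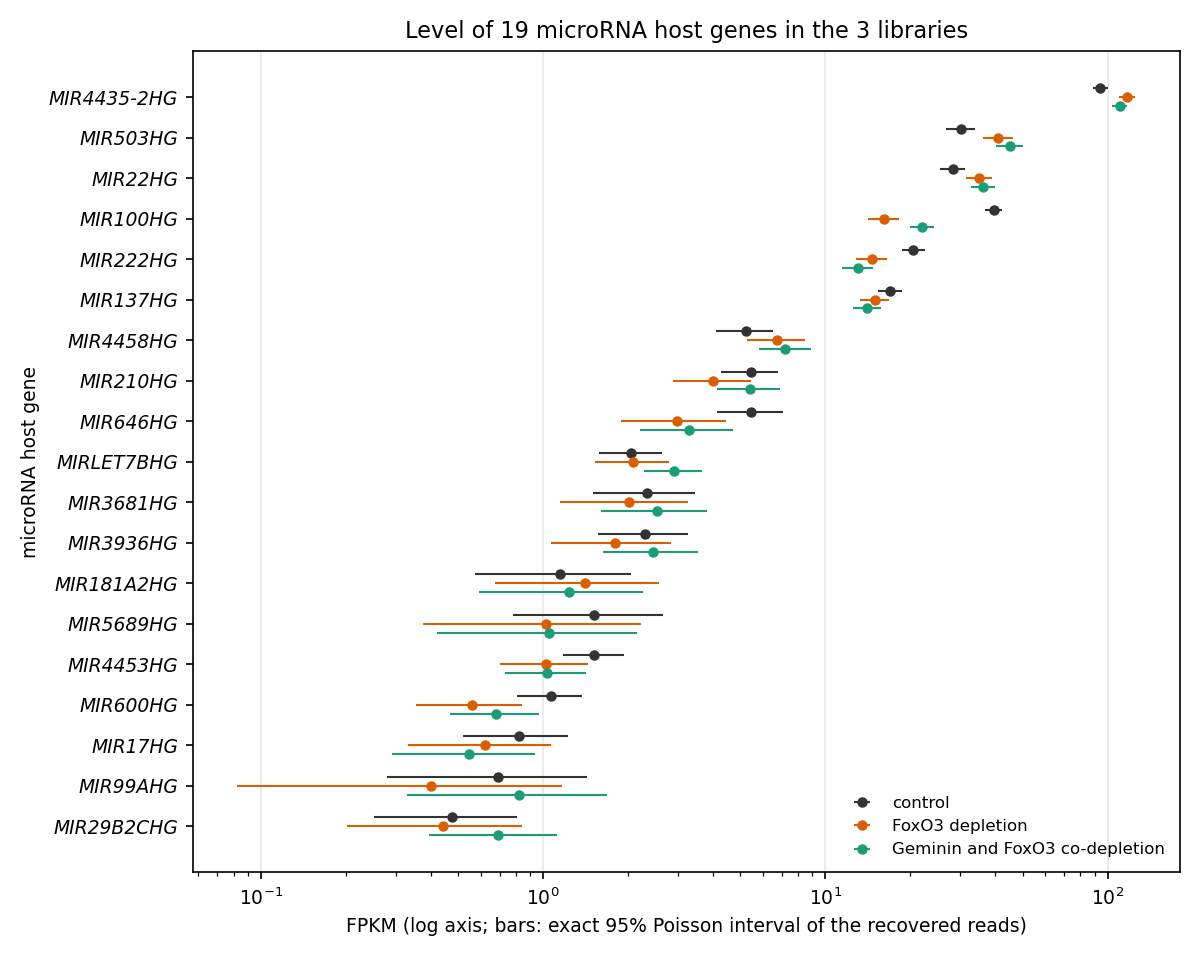
FPKM on a log axis for the 19 microRNA host genes in the control, FoxO3-depleted and co-depleted libraries, with exact 95% Poisson intervals of the recovered reads as bars. MIR100HG has the widest gap between the control and both depleted libraries among hosts above 10 FPKM, 39.5 against 16.1 and 22.01.

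In the order of levels MIR4435-2HG was first in each library and MIR100HG was at rank 2 in the control and at rank 4 in both depleted libraries. Among their neighbours MIR503HG (30.2 FPKM, Poisson interval 26.7 to 34.0) and MIR22HG (28.3, 25.5 to 31.3) overlapped in the control. There MIR222HG, at 20.5 (18.7 to 22.5), lay just above MIR137HG, at 17.0 (15.4 to 18.6), while in both depleted libraries MIR137HG ranked first of the pair and their intervals overlapped. MIR646HG, MIR210HG and MIR4458HG, at 5.46, 5.43 and 5.21 FPKM in the control, could not be ordered by their counting intervals.

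The first comparison asks how host genes differ after FoxO3 depletion. MIR100HG was lower by over 2-fold and was the one host past that size. MIR4435-2HG, MIR503HG and MIR22HG were higher by 1.24 to 1.36 times, and MIR222HG, MIR646HG and MIR600HG lower, at 0.71, 0.54 and 0.53 of control. These 7 hosts are those whose ratio had an exact 95% Clopper-Pearson interval, from the reads of the libraries compared, that left out 1. The remaining 12 had intervals that held 1.

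A gene was called by size alone, at 2-fold on the scale of FPKM + 0.1, over the 14092 named genes with a mean of at least 0.5 FPKM. By that rule 1 of 19 hosts was lower, against 9.76% of all named genes, and 0 were higher, against 1.87%. Among 1397 long noncoding genes 18.6% were lower and 4.94% higher. Intervals lay above 1 for 3 hosts, against 22% of all named genes, and below 1 for 4 hosts, against 32.3%. For long noncoding genes these shares were 4.08% and 17%. The hosts' own shares were 15.8% above 1 and 21.1% below. Whether an interval leaves out 1 depends on the number of reads, so such shares set genes of unlike depth side by side. The 3 hosts above 1 ranked 6, 17 and 24 among the 1397 long noncoding genes by mean FPKM. At 1.5-fold 4 hosts were lower, against 22.1% of all named genes, and 0 higher, against 6.06%.

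The median log2 ratio of the 19 hosts was -0.34, with 13 below 0 and 6 above. All named genes had -0.10 and long noncoding genes -0.27. The ratios in this pair of libraries moved with the GC content of the transcripts. When all named genes were put in 10 equal bins by GC content, 32.4% of the poorest bin were 2-fold lower, with a median log2 ratio of -0.73. In the richest bin 3.69% were lower, with a median of 0.02. The part of GC content in the hosts' ratios was not tested beyond the adjustment that follows. After subtraction of the median ratio of genes of like GC content, in 50 bins, the median of the hosts was -0.11. Long noncoding genes then had -0.18, and all named genes 0, which the subtraction sets. Of all called genes 84.0% were lower, or 67.4% after this adjustment.

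Of the let-7 and miR-125b hosts, only MIR100HG had a FoxO3 ratio whose interval left out 1. MIR100HG (ENSG00000255248), a long noncoding gene with 39 annotated transcripts whose body holds the hairpins of miR-100, let-7a-2 and miR-125b-1, stood at 39.5, 16.1 and 22.01 FPKM. These values rest on 815, 247 and 384 reads, and the control is well above both depleted libraries. Its FPKM ratio after FoxO3 depletion was 0.41, with a counting interval of 0.35 to 0.47. MIR100HG transcripts have a GC content of 41.5%, and in its GC bin 17.5% of genes were 2-fold lower. Its log2 ratio was -1.29, or -0.80 after GC adjustment, which is short of 2-fold.

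MIR99AHG, the paralogous host of miR-99a, let-7c and miR-125b-2, was near the detection limit, at 0.69, 0.40 and 0.82 FPKM from 7, 3 and 7 reads. Its ratio of 0.58 had an interval of 0.10 to 2.53, so a difference like that of MIR100HG was not detectable at this depth. MIRLET7BHG, which holds let-7a-3 and let-7b in exons, was at 2.05, 2.09 and 2.91 FPKM, with a ratio of 1.02 (0.68 to 1.52); its exons overlap PRR34-AS1 on the same strand, at 1.90, 0.68 and 2.10. The interval of MIRLET7BHG does not overlap that of MIR100HG. MIR4458HG, host of miR-4458, was at 5.21, 6.75 and 7.22 FPKM, with a ratio of 1.29 (0.93 to 1.81). With GC adjustment the log2 ratio went from 0.02 to 0.05 for MIRLET7BHG (GC content 64.9%) and from 0.37 to 0.78 for MIR4458HG (42.1%). That of MIR99AHG went from -0.66 to -0.18. Thus, of 4 hosts of the let-7 seed, 1 was low in the FoxO3-depleted library and 1 had too few reads to place. The other 2 had ratios of 1.02 and 1.29 with intervals that held 1.

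Hosts of microRNAs known to promote proliferation were MIR222HG and MIR17HG. MIR222HG (ENSG00000270069) carries miR-221 and miR-222, which repress the cell cycle inhibitor p27, and was at 20.5, 14.6 and 13.0 FPKM from 467, 246 and 251 reads. Both depleted libraries lay below the control, and the FoxO3 ratio was 0.71 (0.61 to 0.83). Its transcripts have a GC content of 37.8%. The log2 ratio of -0.49 was 0.35 after GC adjustment, so its direction depends on that step. MIR17HG, host of the MYC-activated miR-17 cluster with 6 hairpins in its exons, was low in every library, at 0.82, 0.62 and 0.55 FPKM from 23, 13 and 13 reads. Its ratio of 0.76 had an interval of 0.35 to 1.57, its log2 ratio went from -0.34 to 0.35 with GC adjustment, and MYC itself was at 77.9, 114.0 and 111.7 FPKM.

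Other hosts of microRNAs known to restrain growth are MIR503HG, MIR22HG and MIR137HG. MIR503HG (ENSG00000223749), whose miR-503 belongs to the extended miR-16 family that represses cyclins, was at 30.2, 41.0 and 45.0 FPKM from 272, 274 and 343 reads. The FoxO3 ratio was 1.36 (1.14 to 1.61), and its log2 ratio of 0.44 was 0.35 after GC adjustment. The microRNA gene MIR424 overlaps an exon of MIR503HG on the same strand but was not counted, as it is not wholly inside. MIR22HG (ENSG00000186594) holds miR-22 in an exon and was at 28.3, 35.0 and 36.2 FPKM, a ratio of 1.24 (1.07 to 1.44) for FoxO3 depletion. In both genes the control was the lowest of the libraries. MIR137HG, host of miR-137 and miR-2682, was at 17.0, 15.0 and 14.1 FPKM, with a ratio of 0.88 (0.76 to 1.03). Its exons overlap DPYD, the gene of pyrimidine breakdown, which was at 48.9, 28.3 and 30.6 FPKM, and 5.59% of its 50-base words occur in DPYD transcripts, where reads could go to either gene.

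MIR4435-2HG (ENSG00000172965) is an abundant long noncoding RNA, sixth of 1397 long noncoding genes by mean FPKM. It was at 94.1, 117.3 and 110.7 FPKM, with a ratio of 1.25 (1.14 to 1.36) after FoxO3 depletion. Its exons overlap BCL2L11 on the other strand, at 25.7, 25.7 and 24.8 FPKM, and the library kit does not mark strand. Of the 50-base words of MIR4435-2HG, counted on either strand, 4.92% also occur in transcripts of BCL2L11. A further gene, CYTOR, a related long noncoding one, holds 21.6% of these words. Reads from the stretch shared with CYTOR cannot be told apart between CYTOR and MIR4435-2HG. CYTOR, named for this reason after its values were seen, was at 203.7, 303.7 and 317.9 FPKM, a ratio of 1.49 (1.40 to 1.59). Both MIR4435-2HG and CYTOR were thus lowest in the control, and their FoxO3 intervals did not overlap.

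MIR210HG carries miR-210, the microRNA most widely induced by hypoxia-inducible factors. It was at 5.43, 4.002 and 5.39 FPKM from 75, 41 and 63 reads, and the ratio of 0.74 had an interval of 0.49 to 1.09. HIF1A, one of its known regulators, was at 176.1, 73.2 and 94.1 FPKM and the related factor EPAS1 at 60.5, 88.6 and 88.6. The FoxO3 difference of MIR210HG was thus within counting error, with HIF1A lower and EPAS1 higher than control in both depleted libraries.

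MIR646HG and MIR600HG, hosts of less studied microRNAs, were low in the FoxO3 depletion. MIR646HG, host of miR-646 and miR-4533, was at 5.46, 2.97 and 3.28 FPKM from 57, 23 and 29 reads, a ratio of 0.54 (0.32 to 0.90). MIR600HG, which holds miR-600 in an exon, was at 1.06, 0.56 and 0.68 FPKM from 59, 23 and 32 reads, a ratio of 0.53 (0.31 to 0.86). In both, the control was the highest library. Their GC contents of 47.7% and 54.0% lie where the median ratio of all genes was near 0, and after GC adjustment the log2 ratios were -0.78 and -0.84, against -0.86 and -0.82 before. MIR600HG shares exon sequence with STRBP on the same strand, at 14.5, 14.6 and 17.1 FPKM, and 3.51% of its 50-base words occur there.

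The other 6 hosts had FoxO3 ratios whose intervals held 1. MIR4453HG had the most reads of these, 66, 33 and 38, and was at 1.52, 1.02 and 1.03 FPKM, a ratio of 0.67 (0.43 to 1.04). MIR3681HG, MIR3936HG, MIR181A2HG, MIR5689HG and MIR29B2CHG, the last the host of miR-29b-2 and miR-29c, rested on 6 to 31 reads per library. Their ratios ran from 0.67 for MIR5689HG to 1.23 for MIR181A2HG. Exons of MIR3936HG overlap SLC22A4 and SLC22A5 on the other strand, and the library kit does not mark strand.

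**Figure D2:**
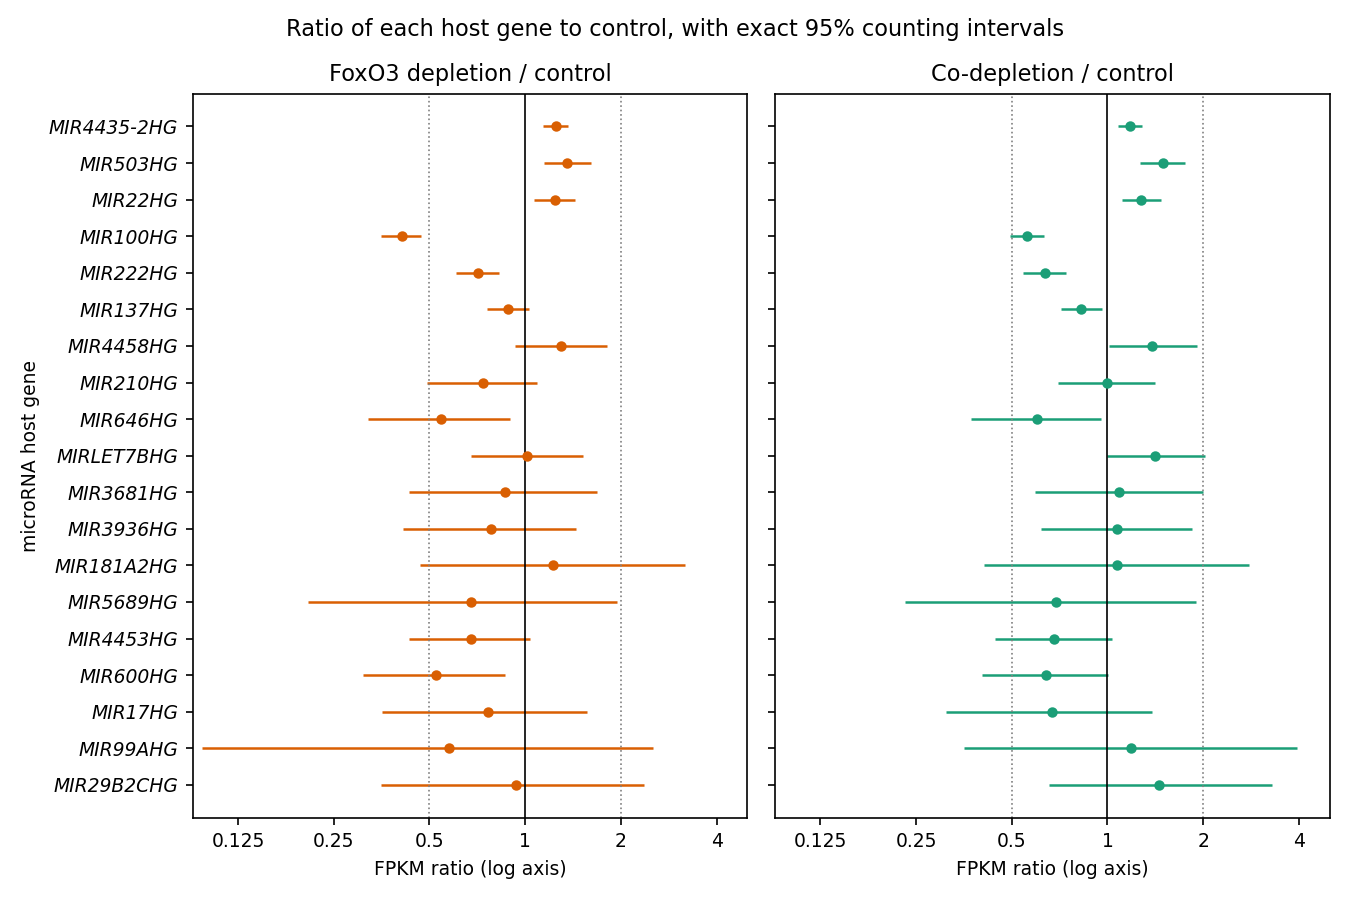
FPKM ratio to control, on a log axis, of each of the 19 host genes in the FoxO3 depletion (left) and the co-depletion (right), with exact 95% Clopper-Pearson counting intervals. The solid line marks 1 and the dotted lines 0.5 and 2. On the left the interval of MIR100HG (0.35 to 0.47) lies wholly below 0.5.

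The second comparison asks how host genes differ after co-depletion of Geminin and FoxO3. It shares the control library with the first, so the comparisons are not independent. MIR100HG again had the lowest ratio, 0.56 (0.49 to 0.63), and MIR503HG the highest, 1.49 (1.27 to 1.76). Lower hosts besides MIR100HG were MIR646HG, MIR222HG and MIR137HG, and higher ones besides MIR503HG were MIR4458HG, MIR22HG and MIR4435-2HG. By size, 0 of 19 hosts were 2-fold lower, against 5.67% of all named genes and 13.3% of long noncoding genes, and 0 were 2-fold higher, against 1.71% and 4.8%.

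Intervals lay below 1 for 4 hosts, against 30.2% of all named genes, and above 1 for 4, against 22%. Of long noncoding genes 14.3% lay below and 4.22% above. At 1.5-fold 3 hosts were lower, against 17.6% of all named genes, and 0 higher, against 6.39%. MIR646HG had a ratio of 0.60 (0.37 to 0.96), MIR222HG 0.64 (0.54 to 0.74) and MIR137HG 0.83 (0.71 to 0.96). The log2 ratio of MIR222HG, -0.65, was -0.05 after GC adjustment, while that of MIR100HG went from -0.84 to -0.43. Among higher hosts MIR4458HG had a ratio of 1.38 (1.01 to 1.91), MIR22HG 1.28 (1.11 to 1.48) and MIR4435-2HG 1.18 (1.08 to 1.28). MIRLET7BHG, at 1.42, had an interval of 0.99 to 2.02.

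The median log2 ratio of the hosts was 0.09, with 10 above 0 and 9 below. All named genes had -0.07 and long noncoding genes -0.23. After GC adjustment the hosts' median was 0.10, against 0 for all named genes and -0.13 for long noncoding genes. Of all called genes 63.7% were lower after it, against 76.8% before it.

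**Figure D3:**
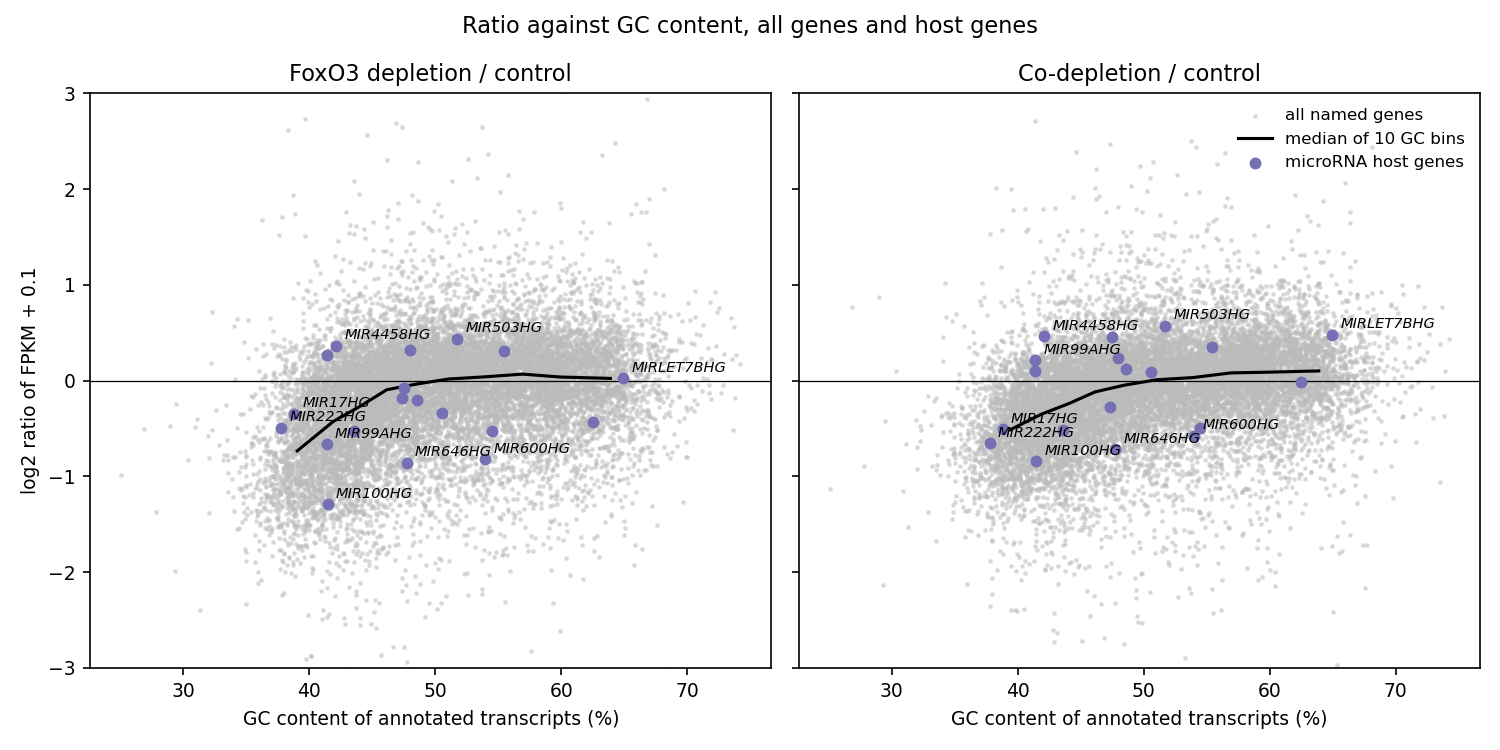
Log2 ratio of FPKM + 0.1 against the mean GC content of each gene's annotated transcripts, in percent, for all named genes (grey), the 19 host genes (purple) and the median of 10 equal bins (line), for FoxO3 depletion (left) and co-depletion (right). MIR100HG lies below the line in both panels and MIR503HG above it, and 56 and 37 genes beyond 3 on the log2 scale lie outside the panels.

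The third comparison sets the co-depletion against the FoxO3 depletion, libraries that differ by label in the Geminin depletion. MIR100HG was 1.36 times higher in the co-depleted library (1.16 to 1.61), between the FoxO3-depleted library and the control. It was the 1 host whose interval lay above 1, against 12.4% of all named genes, and 0 lay below 1, against 8.05%. Of long noncoding genes 4.44% lay above and 2.43% below. By size, 0 hosts were 2-fold higher or lower, against 1.85% and 1.32% of all named genes and 9.45% and 6.37% of long noncoding genes. At 1.5-fold 1 host, MIR99AHG, was higher, against 5.65%, and 0 lower, against 3.34%. MIR99AHG had a ratio of 2.05, but from 3 and 7 reads its interval ran from 0.47 to 12.3. The hosts' median log2 ratio was 0.13, with 14 of 19 above 0, against 0.03 for all named genes and 0.07 for long noncoding genes. After GC adjustment the hosts' median was 0.16, against 0 for all named genes and 0.05 for long noncoding genes. That adjustment took the log2 ratio of MIR100HG from 0.45 to 0.36.

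By the distance between log2 ratios to control, the protein-coding genes of at least 5 FPKM nearest to MIR100HG over the 3 libraries were CIR1, a corepressor, and FANCM, a Fanconi anaemia helicase. CIR1 was at 24.1, 9.81 and 13.5 FPKM and FANCM at 8.20, 3.24 and 4.54. Their transcripts have GC contents of 39.5% and 37.4%, against 41.5% for MIR100HG. They were picked as nearest from many genes, on ratios that share the control library, so close neighbours were bound to be found. Regulation in common with MIR100HG was not tested.

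The forkhead core letters GTAAACA, searched on both strands, were found in 1 of 28 promoter windows that RefSeq (GRCh38.p14) gives for 18 of the 19 hosts, a window of MIR99AHG. Of all 35116 windows, which run from 250 bases before to 50 after a start, 3.42% hold these letters. The longer GTAAACAA was in 0 of the 28 and in 0.954% of all.

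At the mean of 0.5 FPKM the lowest host inside was MIR29B2CHG, with a mean of 0.54, and the highest outside were MIR3142HG, host of miR-146a, at 0.42, and MIR762HG at 0.40. Of the 15 hosts above 0 but under the mean, 11 were above 0 in exactly 1 library. MIR193BHG was listed at 0.56 FPKM in the co-depletion and at 0 in the other two, and MIR34AHG, host of the p53-activated miR-34a, at 0.25 in the control and 0 elsewhere. MIR155HG, of the inflammatory miR-155, was listed at 0.06 FPKM in the FoxO3 depletion and 0 elsewhere. MIR31HG, MIR200CHG and MIR205HG were among the 25 listed at 0 in all libraries. These 6 were named after their values were seen, because their microRNAs are well known in breast cancer cells.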

How the data were processed

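The authors deposited 1 table per library with FPKM per Ensembl gene, made after alignment with TopHat2 2.0.9 per the submitters' processing notes. No source used here gives the counter, build, annotation or FPKM tool, so no coordinates are printed. An Illumina TruSeq kit turned total RNA into libraries, per the labels' protocols. GENCODE 29 named 45342 of 48162 gene IDs and gave transcript lengths, GC content and host-to-microRNA positions.

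Totals behind the FPKM were inferred from the commonest product of FPKM and length among genes with 1 transcript. For each gene the smallest whole reads, up to 60000, that fit every library and a whole length were then found, within 0.0003 reads and 0.003 bases. This succeeded for 99.97% of 20591 genes, against 0.05% of 2000 random triples. A gene's reads are known up to a shared whole factor, which can make its interval too wide. Intervals cover counting error only. Log2 ratios used FPKM + 0.1, which understates differences of low genes. Steps were tested on simulated data.

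A further 421 genes above 0.5 FPKM have no GENCODE 29 name and were left out. The rule for named genes allowed every host with a mean of at least 0.5 FPKM, FOXO3, GMNN, DICER1 and, of each list, the extremes. The hosts, lists and alternatives were chosen with earlier results of these data known. Analysis used Python 3.11.15, pandas 2.3.3 and scipy 1.17.1.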

Additional observations from a re-analysis of the deposited data

How the results depend on the processing

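With no replicates, the cause of each difference between settings was not tested. In the FoxO3 comparison 1 host was called lower and 0 higher. The lower count was 4 at 1.5-fold (MIR100HG, MIR600HG, MIR646HG and MIR99AHG), 0 at 3-fold (2.13% of all named genes), 0 after GC adjustment (5.02%), and 4 with no minimum on FPKM, where 2 were called higher. With no minimum these are 11.8% and 5.88% of 34 hosts, against 15.1% and 6.08% of 24822 genes. In the co-depletion comparison 3 were lower at 1.5-fold, and 3 lower and 3 higher with no minimum (8.82% each, against 11.7% and 6.49% of genes). Between the depleted libraries 1 was higher at 1.5-fold, and 3 higher and 1 lower with no minimum (8.82% and 2.94%, against 8.68% and 6.57%). In each comparison the hosts added with no minimum were above 0 in 1 library or rested on at most 7 reads per library. Other counts were within 1.5 times under pseudocounts of 0.5 and 1, a minimum of 1 FPKM and both rescalings. Hosts over the minimum numbered 15 at 1 FPKM and 24 at 0.1. Of 387 recomputed log2 ratios of hosts, 380 kept their sign, though another pseudocount or minimum on FPKM cannot change a sign. That share is therefore no measure of robustness. Signs changed only under the rescalings and the GC adjustment, for MIRLET7BHG, MIR17HG, MIR222HG, MIR210HG and MIR4453HG. Of the 387, 4 moved by more than their counting interval's half-width, all of these under GC adjustment. Among all genes 1376 were called lower after FoxO3 depletion, or 700 with a pseudocount of 1 and 708 after GC adjustment. For the co-depletion these counts were 799, 318 and 478. Genes called higher numbered 263 and 241, or 91 and 87 with a pseudocount of 1. Depth limits MIR99AHG most, from 3 reads in the FoxO3 depletion. No paired analysis was possible because each group has 1 library.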

Other observations

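By annotation 735 tested protein-coding genes hold a microRNA gene on their own strand. After FoxO3 depletion 8 of these (1.09%) were 2-fold higher and 51 (6.94%) lower, against 1.87% and 9.76% of all named genes. After co-depletion 4 (0.544%) were higher and 28 (3.81%) lower, against 1.71% and 5.67%. Their median log2 ratio was -0.02 in both. Of 42 tested noncoding and other hosts 2 (4.76%) were higher and 4 (9.52%) lower after FoxO3 depletion. The share lower is near the 9.76% of all named genes and under the 18.6% of long noncoding genes. The 2 higher, AL158152.2 and ZNRF2P2, had 2 and 1 reads in the control and 6 and 5 after FoxO3 depletion, and their intervals held 1. Of the lower, AC048341.1 had 12 and 3 reads and an interval of 0.06 to 1.25. After co-depletion 2 (4.76%) were higher and 1 (2.38%) lower, against 1.71% and 5.67% of all named genes. NEAT1, the paraspeckle RNA that spans miR-612, was at 33.1, 14.2 and 19.8 FPKM in control, FoxO3 depletion and co-depletion. Its log2 ratio was -1.21, or -1.15 after GC adjustment.

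Of 37 tested well-known hosts 1 (2.70%) was 2-fold higher and 3 (8.11%) lower after FoxO3 depletion, shares near those of all named genes, 1.87% and 9.76%. The imprinted gene MEST, host of miR-335, was at 12.1, 24.7 and 24.4 FPKM, a ratio of 2.04 (1.70 to 2.45) after FoxO3 depletion. PDE2A, a phosphodiesterase whose gene holds miR-139, was at 8.55, 2.97 and 4.90, ZRANB2, host of miR-186, at 52.1, 18.9 and 25.1, and SMC4, the condensin subunit whose gene holds miR-15b and miR-16-2, at 117.3, 47.4 and 57.4. After GC adjustment the log2 ratio of SMC4 went from -1.31 to -0.61 and that of ZRANB2 from -1.46 to -0.55, while that of PDE2A went from -1.50 to -1.55. Of 16 tested genes of microRNA processing and action 1, DICER1, was 2-fold lower in each comparison with control, at 39.3, 14.8 and 17.9 FPKM, and 0 were higher. This is 6.25% lower, against 9.76% and 5.67% of all named genes. The log2 ratios of DICER1 went from -1.41 to -0.92 and from -1.13 to -0.72 with GC adjustment, short of 2-fold in both. Of 10 tested regulators of the hosts 2 were 2-fold lower after FoxO3 depletion, where 9.76% of all named genes were: HIF1A and ZEB1, the repressor of the miR-200 genes. After GC adjustment HIF1A went from -1.26 to -0.71, short of 2-fold, and ZEB1 from -1.43 to -1.06.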
